A study of Mus musculus with 4 samples.

Results

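Of the small RNAs on the array, 23 genes form the box H/ACA and Cajal body class, out of 19938 genes measured. They were defined by name, with earlier results of these data known. Taken were the probe sets that the platform annotation gives to exactly 1 gene symbol beginning with Snora or Scarna and a digit. This gave 27 probe sets for 23 genes, and a gene with several probe sets was represented by the one with the highest mean over the 4 arrays. In RefSeq, 20 of the genes are typed as snoRNA and 3 as guide RNA, and the 3 are Scarna8, Scarna13 and Scarna17.

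The RNA came from early erythroid progenitors of C57BL/6 fetal liver at E14.5. Magnetic depletion had removed mature blood cells, multipotent cells positive for Sca-1 and myeloid progenitors, and sorting then kept c-Kit-positive cells low in CD71. The cells were lysed, and an immunoprecipitation was done either with an antibody to 1 RNA-binding protein (RBP, 2 arrays) or with control rabbit IgG (2 arrays). All 4 samples share strain, age, tissue and sort, none holds unprecipitated input RNA, and the labels do not name the protein, which is taken to be the zinc finger protein ZFP36L2 from what is known of the study and was not checked against the antibody.

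Box H/ACA RNAs fold into hairpins followed by an H box and an ACA tail, and they guide the conversion of uridine to pseudouridine in a target RNA that pairs with a pocket of the hairpin. Those named Snora work in the nucleolus, mostly on ribosomal RNA, and a few are needed for the cleavage of the ribosomal precursor. Those named Scarna gather in the Cajal body, a nuclear body where spliceosomal RNAs are modified. That name gives the place and not the box type, which was not checked here for the 3 Scarna genes. H/ACA RNAs is used below as a short name for all 23 genes. Nearly all these small RNAs are cut out of the introns of host genes, many of which encode ribosomal proteins or other parts of the translation machinery. Each box H/ACA RNA is bound by the pseudouridine synthase dyskerin and its partner proteins NHP2, NOP10 and GAR1. The small RNAs carry no poly(A) tail, and they were read here after whole-transcript labelling.

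The median level over all probe sets was 5.57 and 5.62 (log2) on the RBP arrays and 5.85 and 5.93 on the IgG arrays, so the arrays had not been made equal. A level of 5.34, the 95th percentile of the mean levels of 1237 chemosensory receptor genes, serves below as the background level. All 6 measured erythroid markers of the 9 listed lay above it, including Kit, Gata1 and Klf1. So did 3 of 3 measured lymphoid, 3 of 4 granulocyte, 3 of 4 endothelial and 3 of 5 hepatocyte markers. For macrophage markers it was 2 of 5 and for megakaryocyte markers 2 of 4. The granulocyte gene Mpo had 11.49 and 10.56 on the RBP arrays and 11.40 and 10.53 on the IgG arrays. A level above background thus does not by itself mark erythroid cells. Separate cell preparations are not stated for the arrays within a group, and p-values therefore cover a spread that may be technical. For nearly all H/ACA RNAs array 2 of each group was higher than array 1, and values without single arrays are given beside the results. In such bulk samples, fewer cells of a type and less RNA per cell cannot be told apart. Lower and higher below refer to the array level after precipitation with the RBP antibody relative to IgG. Such levels are relative to the RNA labelled for each array, and do not by themselves give the amount of an RNA recovered. Without input RNA, the levels in the cells are not known.

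H/ACA and Cajal body RNAs were lower in the RBP than in the IgG immunoprecipitates. The difference, RBP minus IgG, was negative for all 23, with a median of -2.03 on the log2 scale and a range from -3.09 for Snora33 to -0.73 for Snora2b. Over all 19938 genes the median difference was -0.02. By limma with p-values adjusted over all genes (Benjamini-Hochberg), 14 of the 23 were lower at an adjusted p under 0.05 and 0 were higher, against 6.54% of all genes called lower and 23.8% called higher. The 9 that did not pass had a median difference of -2.01, against -2.13 for the 14 that passed, and larger standard errors, with a median of 0.69 against 0.42. The number called depended on single arrays, for these RNAs and for all genes. The median difference of the 23 was -2.78 without IgG array 1 and -1.40 without IgG array 2. It was -1.52 without RBP array 1 and -2.58 without RBP array 2. The median of all genes stayed between -0.04 and 0.03 in these fits. No member was called when limma's sharing of variance across genes was turned off, where 1 of all 19938 genes was called lower and 2 higher. An exact two-sided permutation test of 2 arrays against 2 cannot give a p below 0.333.

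By size, 21 of the 23 were at least 2-fold lower, where 1.27% of all genes were. Both RBP arrays lay below both IgG arrays for 21 of the 23, where 36.2% of all genes had that order. Ordered from the most negative difference, 12 of the 23 stood among the first 50 of the 19938 genes and 20 among the first 100. The first of them was Snora33 at rank 6 and the last Snora2b at rank 703.

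**Figure D1:**
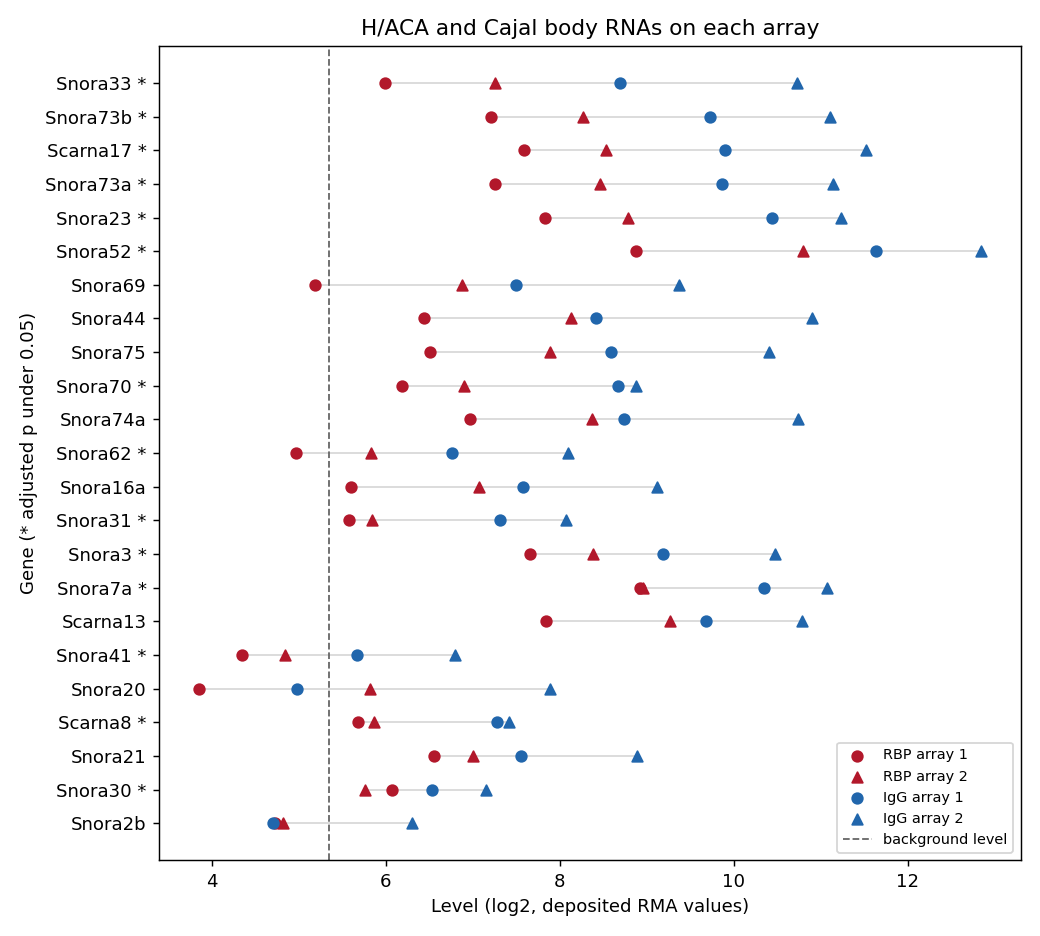
Level of each H/ACA and Cajal body RNA (log2, x axis) on the RBP arrays (red) and the IgG arrays (blue), with array 1 as circles and array 2 as triangles; rows run from the most to the least negative difference, an asterisk marks an adjusted p under 0.05, and the dashed line is the background level of 5.34. RBP points lie left of the IgG points in 21 of 23 rows, and in both groups array 2 usually lies right of array 1.

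Among the RNAs of ribosomal precursor processing, Snora73a and Snora73b were both lower. They are the mouse U17 (E1) RNAs, whose yeast counterpart is required for the cleavages that free the small-subunit rRNA. Snora73a had levels of 7.26 and 8.47 (log2) on the RBP arrays, against 9.86 and 11.14 on the IgG arrays, and Snora73b had 7.22 and 8.27 against 9.73 and 11.10. For each of the pair the groups were separate and array 2 was the higher of its group. The difference was -2.64 ± 0.54 (SE; limma, adjusted p = 0.0175) for Snora73a and -2.67 ± 0.53 (adjusted p = 0.0162) for Snora73b, a level 6.22-fold and 6.38-fold lower. Leaving out IgG array 1 gave a difference of -3.28 for Snora73a and -3.36 for Snora73b. Leaving out IgG array 2 gave -1.998 for Snora73a and -1.99 for Snora73b. The RNAs are closely related copies within the span of 1 gene, Snhg3, so their probe sets may read the same molecules and are not independent.

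Guides whose human counterparts pseudouridylate the small-subunit rRNA numbered 4, and Snora70 and Snora41 were lower. Snora70 (U70) had levels of 6.19 and 6.90 (log2) on the RBP arrays, against 8.67 and 8.88 on the IgG arrays. The gap between the groups was wide beside the gap within them, and the difference was -2.23 ± 0.26 (SE; limma, adjusted p = 0.00568). Snora41 had 4.35 and 4.84 on the RBP arrays, both under the background level, against 5.67 and 6.80 on the IgG arrays, which leaves the size of its difference of -1.64 ± 0.39 (adjusted p = 0.0271) uncertain. Snora44 had 6.44 and 8.13 against 8.42 and 10.90, a difference of -2.37 ± 0.89 that did not pass (adjusted p = 0.0953). Its groups were separate by a small margin because both groups held a low array 1 and a high array 2. Snora20 spread most, at 3.85 and 5.81 against 4.98 and 7.89, and its groups overlapped (difference -1.60 ± 1.05, adjusted p = 0.276).

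Guides assigned in human cells to the large-subunit rRNA numbered 11, counting Snora69, whose target is the short rRNA of that subunit. Of these, Snora33, Snora23, Snora52, Snora3, Snora7a and Snora30 were lower and 5 did not pass. Snora33 had the most negative difference of the class, with 5.99 and 7.26 (log2) on the RBP arrays against 8.70 and 10.73 on the IgG arrays, a level 8.49-fold lower (difference -3.09 ± 0.72, SE; limma, adjusted p = 0.0263). That difference was -4.10 without IgG array 1 and -2.07 without IgG array 2. Snora23 had 7.83 and 8.79 on the RBP arrays, against 10.43 and 11.23 on the IgG arrays, and differed by -2.52 ± 0.39 (adjusted p = 0.00863). For both, the higher RBP array stayed more than 1 log2 unit below the lower IgG array. Snora7a had 8.92 and 8.96 on the RBP arrays, against 10.34 and 11.07 on the IgG arrays, and differed by -1.77 ± 0.26 (adjusted p = 0.00742). Its RBP arrays were nearly equal, unlike those of most members. Snora3 had 7.66 and 8.38 against 9.19 and 10.47, a difference of -1.81 ± 0.45 (adjusted p = 0.0325).

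Snora52 and Snora30 passed narrowly. Snora52 had 8.88 and 10.79 (log2) on the RBP arrays, against 11.64 and 12.84 on the IgG arrays, and differed by -2.40 ± 0.68 (SE; limma, adjusted p = 0.0456). The call was lost when IgG array 2 was left out (difference -1.80, adjusted p = 0.134) and when RBP array 1 was (-1.45, adjusted p = 0.106). Snora30 had 6.07 and 5.77 on the RBP arrays, against 6.53 and 7.16 on the IgG arrays, and differed by -0.93 ± 0.25 (adjusted p = 0.0386). It was the member in which RBP array 2 lay below RBP array 1, and it kept its call without IgG array 1 but lost it without any 1 of the other arrays (adjusted p = 0.0555 to 0.182). The 5 large-subunit guides that did not pass were Snora69 (difference -2.40 ± 0.75), Snora74a (-2.07 ± 0.73), Snora16a (-2.01 ± 0.64), Snora21 (-1.44 ± 0.44) and Snora2b (-0.73 ± 0.49), with adjusted p from 0.0551 to 0.285. Snora74a is the mouse U19 RNA. Snora2b had 4.72 and 4.82 on the RBP arrays, against 4.71 and 6.30 on the IgG arrays, so the groups overlapped and its difference came from IgG array 2 (0.060 without it, adjusted p = 0.745).

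The remaining Snora genes are given no target here. Snora31 had 5.58 and 5.84 (log2) on the RBP arrays, against 7.32 and 8.07 on the IgG arrays, and was lower by limma's test (difference -1.98 ± 0.27, SE; adjusted p = 0.00678). Snora62, the E2 RNA, had 4.97 and 5.83 against 6.76 and 8.10 and was also lower (-2.03 ± 0.49, adjusted p = 0.0288). Snora75 had 6.51 and 7.88 against 8.59 and 10.41 and narrowly did not pass (-2.31 ± 0.69, adjusted p = 0.0521). All 3 kept their groups apart.

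Of the Cajal body RNAs, Scarna8 and Scarna17 were lower. Scarna8 had levels of 5.69 and 5.86 (log2) on the RBP arrays, against 7.28 and 7.42 on the IgG arrays with little spread in either group. The difference was -1.57 ± 0.15 (SE; limma, adjusted p = 0.00558), the smallest standard error of the 23, and the level was 2.98-fold lower. Scarna17 had 7.59 and 8.53 on the RBP arrays, against 9.90 and 11.52 on the IgG arrays, a level 6.26-fold lower (difference -2.65 ± 0.57, adjusted p = 0.0206). The difference of Scarna17 was -3.45 without IgG array 1 and -1.84 without IgG array 2. Scarna13, the U93 RNA, built of H/ACA domains in tandem and in human cells a guide for spliceosomal RNAs, had 7.84 and 9.27 against 9.68 and 10.78. Its groups were separate but the difference of -1.68 ± 0.55 did not pass (adjusted p = 0.0675). The median difference was -1.68 over the 3 Scarna genes and -2.05 over the 20 Snora genes. That gap was not tested, and each median lies within the range of the other set.

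Snora33, Snora73a, Snora73b, Scarna17, Snora3, Snora41 and Snora62 lost their calls without RBP array 1, besides Snora52 and Snora30. The 5 that passed with any 1 array left out were Scarna8, Snora23, Snora31, Snora70 and Snora7a.

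The arrays of a group were unequal for these RNAs. IgG array 2 was above IgG array 1 for 23 of 23 members, with a median gap of 1.34 on the log2 scale, and RBP array 2 was above RBP array 1 for 22 of 23, with a median gap of 0.96. Over all genes the median gaps were -0.06 and -0.01. The gap ran from 0.14 (Scarna8) to 2.91 (Snora20) in the IgG pair and from -0.30 (Snora30) to 1.96 (Snora20) in the RBP pair, and Pearson's r between the gaps of the pairs was 0.68 across the 23 members and 0.26 across all genes, given as a description since members share arrays. Taken array by array, RBP array 1 was below IgG array 1 for 22 of 23 members (median -1.84), and RBP array 2 was below IgG array 2 for 23 of 23 (median -2.11).

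**Figure D2:**
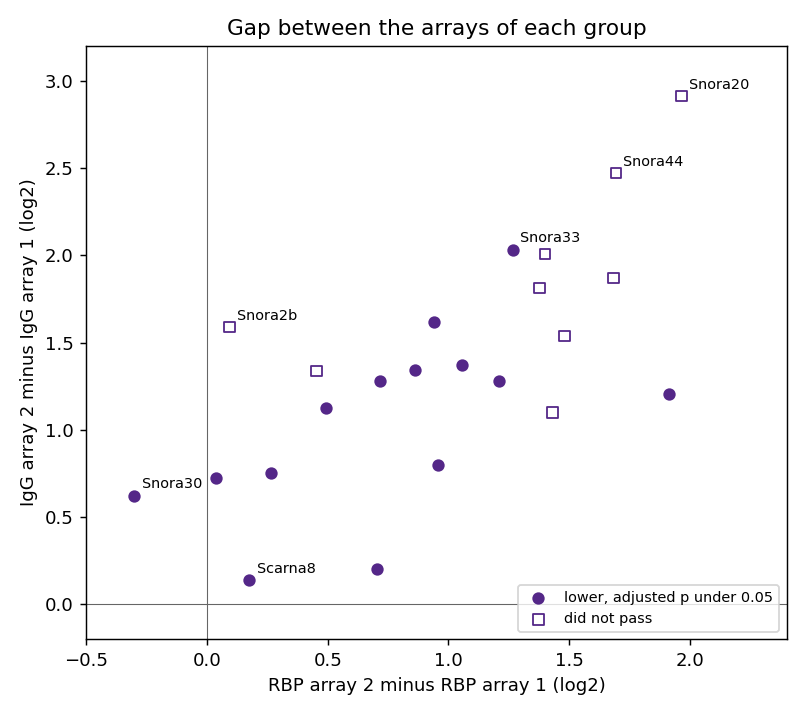
Array 2 minus array 1 in the RBP pair (x axis) and in the IgG pair (y axis), log2, 1 point per H/ACA or Cajal body RNA; filled circles were lower at an adjusted p under 0.05 and open squares did not pass. All points but Snora30 lie right of 0 and all lie above 0, with Snora20 farthest out at 1.96 and 2.91.

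Markers of other blood and liver cells also differed between arrays 1 and 2. The mean log2 level of the 4 granulocyte markers was 8.52 and 7.62 on RBP arrays 1 and 2 and 9.11 and 8.06 on IgG arrays 1 and 2. For the 5 hepatocyte markers it was 6.12 and 5.51 on the RBP arrays and 6.28 and 5.40 on the IgG arrays, and for the 3 measured lymphoid markers 6.47 and 5.81 and 6.87 and 5.94. The 4 endothelial markers averaged 6.24 and 5.91 on the RBP arrays and 5.904 and 5.61 on the IgG arrays. Macrophage and megakaryocyte means lay between 5.79 and 6.19 on every array. For the 6 erythroid markers it was 10.13 and 10.37 on the RBP arrays and 9.59 and 9.75 on the IgG arrays. Array 2 was above array 1 for 0 of 4 granulocyte, 0 of 5 hepatocyte and 0 of 4 endothelial markers in each group. It was above for 1 of 3 lymphoid, 1 of 5 macrophage, 2 of 4 megakaryocyte and 5 of 6 erythroid markers in each group, and for 22 of the 23 H/ACA RNAs in the RBP group and 23 in the IgG group. Between groups, Cd68 (difference -1.59, adjusted p = 0.00568) and Elane (-1.44, adjusted p = 0.0461) were the marker genes called lower by limma, and Gp9 of the megakaryocyte list (0.82, adjusted p = 0.0141) and the erythroid genes Kit (0.69, adjusted p = 0.0439), Epor (0.87, adjusted p = 0.021) and Tal1 (0.58, adjusted p = 0.0298) were those called higher. The differences of other macrophage and granulocyte markers, such as Csf1r (1.12), Adgre1 (0.58) and Mpo (0.0635), did not pass. The part of these cells in the results was not tested.

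The difference of genes in general went with their level, and the H/ACA RNAs lay off that relation. A loess curve of the difference on mean level over all genes had a median height of 0.68 at the members' levels, where they had -2.03. Of the 23, 22 had a mean level above background, and among all 12906 such genes 36.3% were called higher and 6.56% lower. With the curve subtracted, the members' median was -2.59, and 14 were again called lower, of which 11 were the same genes, against 5.34% of all genes called lower in that fit. Scarna13, Snora21 and Snora75 then passed, while Snora30, Snora41 and Snora52 did not. The RBP mean was below background for Snora2b, Snora20 and Snora41, so the sizes of those 3 differences are uncertain.

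**Figure D3:**
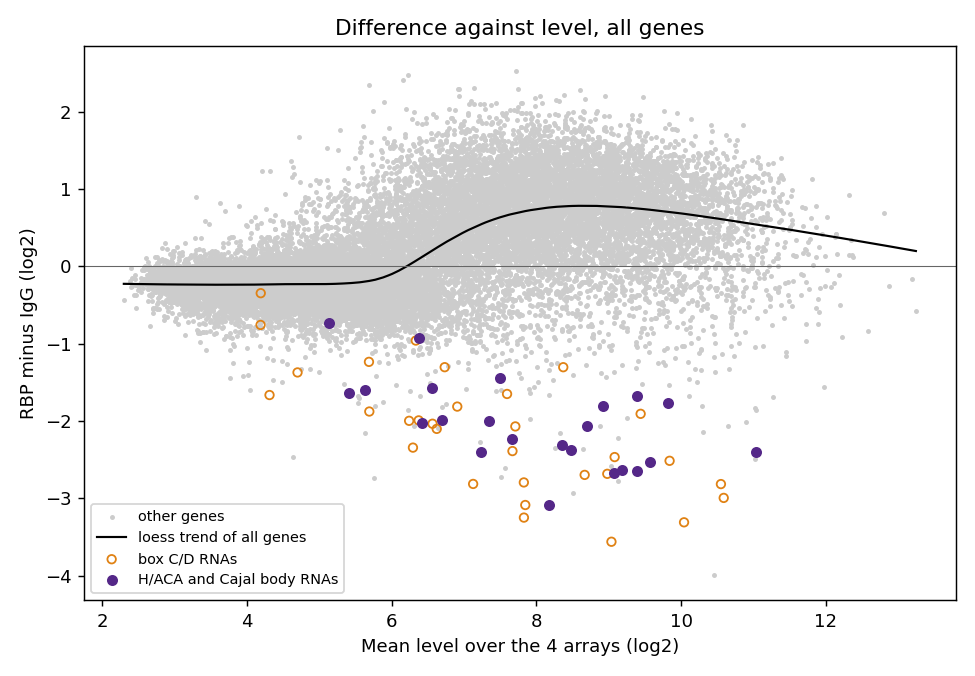
RBP minus IgG (log2, y axis) against the mean level over the 4 arrays (log2, x axis) for all 19938 genes, with H/ACA and Cajal body RNAs as filled purple points, box C/D RNAs as open orange circles and the loess trend of all genes as a line. All 23 purple points lie below 0, from -0.73 to -3.09, where the trend has a median of 0.68 at their levels.

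Box C/D RNAs, the class that guides ribose methylation, had values of the same size. Their median difference over 31 genes named Snord was -2.07, with 25 called lower and 0 higher by limma, and 28 were at least 2-fold lower. The share called lower was 80.6%, against 60.9% of the H/ACA RNAs. Of all genes 6.54% were called lower and 23.8% higher, and 1.27% were at least 2-fold lower. They too were higher on array 2, by a median of 0.70 in the RBP pair and 0.91 in the IgG pair. No test was made between the classes.

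Terc, the telomerase RNA, ends in an H/ACA domain bound by the same proteins and is transcribed from its own promoter, not cut from an intron. It had levels of 8.42 and 8.10 (log2) on the RBP arrays, against 10.17 and 10.29 on the IgG arrays, and was lower by -1.97 ± 0.17 (SE; limma, adjusted p = 0.00558). Its arrays were close within each group, with array 2 at -0.32 from array 1 in the RBP pair and 0.12 in the IgG pair, so it did not share the members' gap. The call held without any 1 array (adjusted p = 0.00918 to 0.0367).

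Host genes had less negative differences than the RNAs inside them. By position in the RefSeq gene table, 22 members lie within the span of 20 annotated host genes, predicted models left out. That table gives no strand, so the strand of a host was not checked. A probe set of a single symbol was found for 14 hosts, each with 1 member, and the member's difference was below that of its host in 14 of 14 cases, by 1.43 to 3.37 on the log2 scale. The median difference of the hosts was -1e-04, near the -0.02 of all genes. With 20 of the 23 members among the 100 lowest genes, most other genes would lie above them too. That order is therefore not particular to hosts. Of the 14 hosts, 4 were higher (28.6%), 1 was lower (7.14%) and 9 did not pass by limma's test, where 23.8% of all genes were called higher (36.3% of genes above background) and 6.54% lower. With quantile normalization the 4 higher hosts, Haus6, Ipo7, Kansl2 and Srcap, no longer passed (limma, adjusted p = 0.0665 to 0.165).

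The hosts that were higher were Haus6, Kansl2, Ipo7 and Srcap. Haus6, a subunit of the augmin complex of the spindle, had levels of 8.57 and 9.00 (log2) on the RBP arrays, against 7.45 and 7.83 on the IgG arrays (difference 1.14 ± 0.22, SE; limma, adjusted p = 0.0148). The Scarna8 inside it differed by -1.57. Ipo7, a nuclear import receptor, had 10.78 and 10.72 against 9.85 and 9.96 (difference 0.84 ± 0.14, adjusted p = 0.011), and its Snora23 differed by -2.52. The pair of Ipo7 and Snora23 was thus the widest apart. Kansl2, of a histone acetyltransferase complex, differed by 1.03 ± 0.19 (adjusted p = 0.0137), and Srcap, a chromatin remodelling ATPase, by 0.68 ± 0.20 (adjusted p = 0.0496). Haus6 lost its call without RBP array 2, Kansl2 without RBP array 1, Ipo7 without either RBP array and Srcap without IgG array 1 or either RBP array.

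The host called lower was Rps12. That gene, for a small-subunit ribosomal protein, had 9.27 and 9.39 (log2) on the RBP arrays, against 10.56 and 10.47 on the IgG arrays, and was lower (difference -1.19 ± 0.15, SE; limma, adjusted p = 0.00589). Its Snora33 was the member with the most negative difference. The ribosomal protein genes Rpl23 (-0.02), Rpl27a (-0.38), Rplp2 (-0.24), Rpsa (0.02) and Rpl10 (-0.11) did not pass, nor did Eef1b2, an elongation factor subunit (-0.19), Tpt1, the translationally controlled tumour protein gene (-0.33), Ncl, nucleolin (0.22), and Tcp1, a chaperonin subunit (0.36). Their adjusted p ranged from 0.122 to 0.964, and of these 9 Rpl27a and Tpt1 alone kept their sign in every alternative setting. IgG array 2 was above IgG array 1 for 3 of the 14 hosts, where it was above for all 23 RNAs. With the level curve subtracted 0 of the 14 hosts were higher, where 5.01% of all genes were. Rps12 (-1.88), Rpl27a (-1.001) and Tpt1 (-0.83) were then lower by limma (adjusted p = 0.012 to 0.0392), where 5.34% of all genes were. Whether a probe set within an intron reads the finished RNA or the unspliced host transcript cannot be told apart on these arrays.

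**Figure D4:**
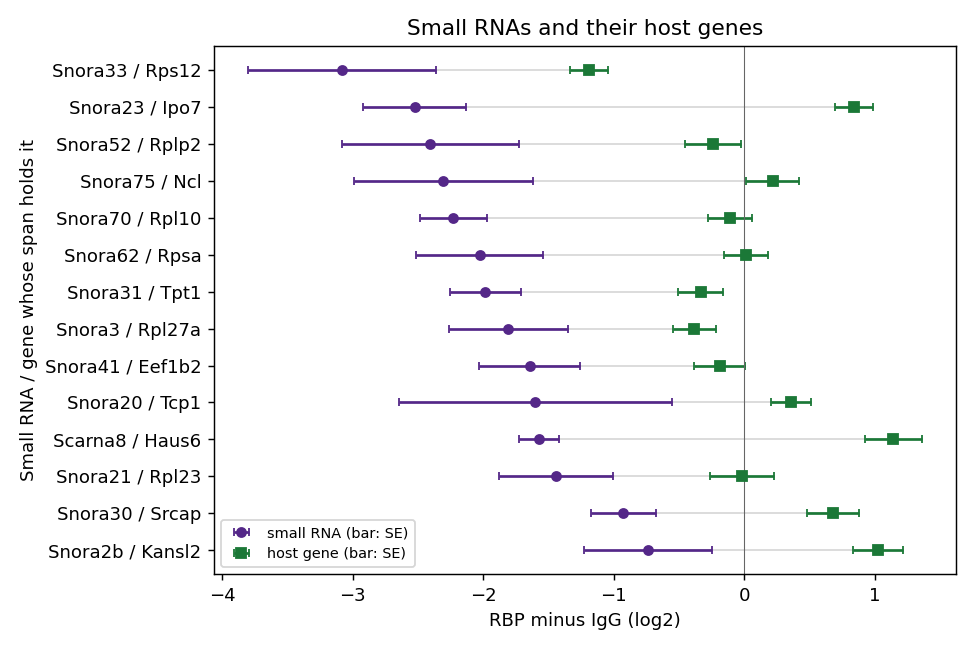
RBP minus IgG (log2, x axis, bars are SE) for 14 H/ACA and Cajal body RNAs (purple circles) and for the gene whose annotated span holds each (green squares), 1 pair per row. Every circle lies left of its square, by 1.43 to 3.37, and the squares run from -1.19 (Rps12) to 1.14 (Haus6).

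Many mRNAs of proteins that bind, assemble or gather these RNAs were higher. Of 24 listed symbols 22 had a probe set of their own, and Papd5 is an older name of the listed Tent4b. Of the 22, 14 were higher, 0 were lower and 8 did not pass by limma's test, with a median difference of 0.83, while 36.3% of all genes above background were called higher. The loess curve at their levels had a median of 0.73, and with it subtracted 2 were higher and 2 lower. In that fit 5.01% of all genes were called higher and 5.34% lower. With quantile normalization 5 were called higher, where 2207 of all 19938 genes were. Leaving out either RBP array lowered the number called higher, for these genes and for all genes. Calls lost without 1 array are named below.

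Of the 4 core proteins, Dkc1 and Gar1 were higher and Nhp2 and Nop10 did not pass. Dkc1 encodes dyskerin, the pseudouridine synthase, and had levels of 10.49 and 11.04 (log2) on the RBP arrays, against 9.77 and 9.81 on the IgG arrays (difference 0.97 ± 0.21, SE; limma, adjusted p = 0.0222). It lost that call without IgG array 1 or RBP array 2. Gar1 had 10.71 and 10.58 against 9.33 and 9.52 (difference 1.22 ± 0.16, adjusted p = 0.0061). Nhp2 differed by 0.01 ± 0.17 (adjusted p = 0.98) and Nop10 by -0.28 ± 0.18 (adjusted p = 0.265), and with the level curve subtracted these were the 2 genes called lower, at -0.78 and -0.91.

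Among the 9 assembly and trimming factors 6 were higher. Parn, the exonuclease that trims the ends of H/ACA RNAs, differed by 1.21 ± 0.14 (SE; limma, adjusted p = 0.00568). Naf1, which holds the place of GAR1 during assembly, differed by 1.19 ± 0.16 (adjusted p = 0.00635). The ATPase Ruvbl1 differed by 1.09, Zcchc8, of a nuclear exosome adaptor, by 0.94, Nolc1, a chaperone of nucleolus and Cajal body, by 0.76, and Tent4b, a polymerase that adds short A tails, by 0.71. Shq1, the chaperone of dyskerin (0.66), Ruvbl2 (0.61) and Nufip1 (0.26) did not pass. Without RBP array 1 and again without RBP array 2, Ruvbl1, Nolc1, Tent4b and Zcchc8 lost their calls.

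Of the 9 Cajal body genes 6 were higher, led by Ice1 and Coil. Ice1, a scaffold of the complex that transcribes small nuclear RNA genes, had 10.24 and 10.46 (log2) on the RBP arrays, against 8.40 and 8.55 on the IgG arrays (difference 1.88 ± 0.16, SE; limma, adjusted p = 0.00558). Coil encodes coilin, the marker protein of the body, and had 7.57 and 7.38 against 5.71 and 6.00 (difference 1.61 ± 0.17, adjusted p = 0.00558). These 2 were also the genes called higher with the level curve subtracted. Gemin5 (1.28) and Gemin4 (1.02), of the SMN complex, Npat, a histone gene coactivator (0.90), and the deadenylase Toe1 (0.68) were higher as well. Wrap53, which carries the protein that brings H/ACA RNAs to the Cajal body, differed by 0.10 ± 0.23, and Smn1 (0.20) and Gemin2 (0.45) did not pass either. Npat lost its call without IgG array 1 or RBP array 2, and Gemin4 and Toe1 without either RBP array.

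**Figure D5:**
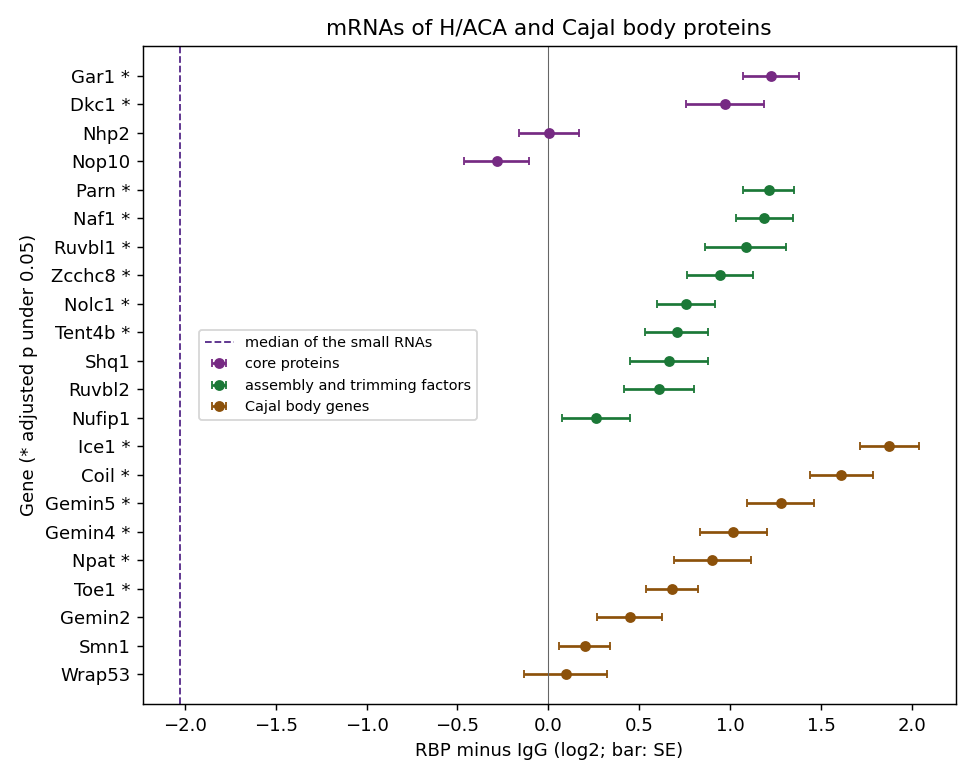
RBP minus IgG (log2, x axis, bars are SE) for 22 mRNAs of H/ACA core proteins, assembly and trimming factors and Cajal body genes, with asterisks at an adjusted p under 0.05; the dashed line is the median of the H/ACA and Cajal body RNAs at -2.03. The 14 genes with an asterisk lie between 0.68 and 1.88.

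For 4 members there was more than 1 probe set. The probe sets of Scarna17 held identical values, as did those of Snora30, and those of Snora3 and Snora21 differed by at most 0.22 on any array, so they add no independent reading. A further 8 probe sets name a Snora gene together with another gene and were left out of the 23. All 8 had a negative difference, from -2.48 for the set of Snora28 and Eif5 to -0.56 for the pair of sets of Snora19 with identical values. In a limma fit over all 35556 probe sets, in which 5.62% were called lower, 1 of the 8 passed. It names Snora43 and Snhg7 and had 7.55 and 7.67 (log2) on the RBP arrays, against 9.09 and 9.41 on the IgG arrays (difference -1.64 ± 0.18, SE; adjusted p = 0.0259). Those of Snora36b and Snora19 were below the background level on all 4 arrays.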

How the data were processed

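The authors deposited 1 log2 level for each probe set and array. The submitters' processing notes name RMA and affy. Their versions, background step and filters are not stated in those sources. That the scale is log2 was read from the values. Of 35556 probe sets, 21789 carry 1 gene symbol in the platform annotation, 1621 several and 12146 none. All 23 members matched the RefSeq table of assembly GRCm38.p6 by Entrez identifier, which was used for names, types and neighbouring genes.

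RBP minus IgG was fitted over all genes in R 4.3.3 with limma 3.58.1 (lmFit, eBayes without trend or robust options, 2 residual and 3.76 prior degrees of freedom), two-sided, with Benjamini-Hochberg adjustment, a threshold of 0.05, no block and no filter on level. A level curve was fitted by loess (span 0.3). The fit was run on simulated data as a check of the code. The simulated errors were drawn independently, so gaps between arrays like those the members share were not part of its main check. Members, lists and alternatives were chosen with earlier results of these data known. All called members, all Scarna genes, Terc, all listed genes and hosts are named by rule; Snora16a, Snora20, Snora44, Snora69 and Snora75 were named after their values were seen. Target assignments are background knowledge from human or yeast counterparts. The number of arrays limits the precision.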

Additional observations from a re-analysis of the deposited data

How the results depend on the processing

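Across 13 alternatives, 298 values of the 23 RNAs were recomputed: 220 kept direction and side of the threshold, 41 newly passed, 36 no longer passed and 1 changed sign (Snora2b, 0.0601 without IgG array 2). Called lower were 11 with quantile normalization, 11 after centring on chemosensory genes (10 and 11 of them among the reported 14), 19 among genes above background, 17 with trend and robust options, 21 at a threshold of 0.1, and 0 without variance moderation (14 in the reported fit). Of all genes, 922 of the 12906 above background and 1728 of 19938 with trend and robust options were called lower, against 1304 in the reported fit. Those of the other settings are given below. Leaving out 1 array gave a median of -2.78 to -1.40, and the number called lower changed for these RNAs and for all genes. Quantile normalization moved the median of all genes to 0.16, and centring to 0.29; relative to these the RNAs' median was -2.36 and -2.01. With the replicate number as a block, 23 were lower, and 2199 of all genes; same-numbered arrays deviated together (Pearson's r of 0.26 over all genes), but nothing in the labels says that a number marks a shared preparation.

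Partner genes called higher were 5 with quantile normalization, 18 after centring, 2 with the level trend removed (2 lower), 0 without moderation, and 6 to 15 with 1 array left out (0 to 1 lower). All genes called lower and higher were 553 and 2207 with quantile normalization, 317 and 7080 after centring, 999 higher with the trend removed, 1 and 2 without moderation, and 2671 lower at a threshold of 0.1. With 1 array left out they ran from 99 to 2905 lower and from 1724 to 5153 higher. The causes were not tested.

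Apart from Snora2b, values that changed sign belonged to partner or host genes, none called in both settings. After centring these were Rplp2 (0.0745), Eef1b2 (0.13), Rpl10 (0.21), Nop10 (0.0314) and Rpl23 (0.30). With the trend removed they were Toe1 (-0.0659), Tcp1 (-0.28), Ncl (-0.22), Smn1 (-0.40), Wrap53 (-0.58), Rpsa (-0.53), Tent4b (-0.0102), Nufip1 (-0.51), Ruvbl2 (-0.16), Shq1 (-0.0877) and Nhp2 (-0.78). With the mean over probe sets they were Rpl23 (0.10) and Rpsa (-0.0668), and with quantile normalization Rpsa (-0.11), Smn1 (-0.0904), Nufip1 (-0.27), Nhp2 (-0.52) and Wrap53 (-0.28). With 1 array left out the values ran from -0.14 to 0.15 for Nhp2, -0.19 to 0.38 for Wrap53, -0.33 to 0.30 for Rpl23, -0.39 to 0.014 for Eef1b2, -0.26 to 0.0448 for Rpl10, -0.0203 to 0.46 for Ncl, -0.10 to 0.13 for Rpsa and -1.53 to 0.0601 for Snora2b.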
